A study of Mus musculus with 16 samples.

Results

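The genes described here encode nuclear subunits of respiratory complexes II to V, the mitochondrial machinery of oxidative phosphorylation. They were chosen by symbol alone, as every gene of the processed expression table whose name marks it as a subunit of succinate dehydrogenase (Sdha to Sdhd), of the cytochrome bc1 complex (Uqcr), of cytochrome c oxidase (Cox5 to Cox8 with an isoform letter) or of ATP synthase (Atp5), pseudogenes left out. This gave 42 of the 18424 genes in the table: 4 of complex II, 8 of complex III, 13 of complex IV and 17 of complex V. The rule did not take in some true subunits with other symbols (Cox4i1, Cox4i2, Cyc1 and Usmg5), and it did take in Atp5s, a factor associated with ATP synthase that is not a structural subunit. Cox6c2, Cox7b2, Cox8b and Cox8c fit the rule by name but were not analysed here.

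RNA was sequenced from the medial prefrontal cortex (mPFC) of 16 male C57BL/6N mice at postnatal day 120, 4 in each of 4 groups. Each mouse was either wild type (WT) or a heterozygote (HT) for an Arid1b allele made by CRISPR/Cas9 targeting of exon 5 (C57BL/6N-Arid1b em1Tcp), which truncates ARID1B, a DNA-binding subunit of the BAF chromatin remodelling complex, in every cell of the body from conception. Their dams drank water with 0.2% saccharin that held either 0.1 mg/ml fluoxetine (Flx), a selective serotonin reuptake inhibitor, or no drug (vehicle, Veh) from postnatal day 3 to day 21, so pups took the drug up through milk, and all mice drank plain water after weaning. Group names join genotype and treatment (WT-Veh, HT-Veh, WT-Flx and HT-Flx). The labels do not tie the mice to litters or dams, so p-values measure the spread between these 16 mice, some of which may be littermates. The tissue is bulk cortex, in which fewer cells of a type and less RNA per cell cannot be told apart.

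Complex II passes electrons from succinate to ubiquinone, complex III passes them on to cytochrome c, and complex IV hands them to oxygen. Complexes III and IV pump protons across the inner mitochondrial membrane, and complex V lets them flow back to make ATP. Complex II is encoded by the nucleus entirely, whereas complexes III, IV and V also hold subunits made inside the organelle from mitochondrial DNA, so both genomes have to be expressed together. Neurons draw most of their ATP from this machinery, and fast-spiking parvalbumin interneurons are known for a high demand.

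Because the members are one of the classic gene groups with shared promoter elements, their start regions were read from RefSeq (build GRCm38.p6), which held a promoter of 300 bases, from 250 before to 50 after the start, for 34 of the 42 members. Sites were searched as plain letters on both strands. The NRF1 core (GCGCA and GCGC with any base between them) stood in 10 of the 34 promoters (29.4%), against 1402 of all 27025 gene promoters (5.19%). The ETS core CCGGAAG, the letters bound by GABP (also called NRF2), stood in 12 (35.3%) against 9.93% of all promoters, and the YY1 core AANATGGCG in 3 (8.82%) against 2.76%. In all, 20 members (58.8%) and 15.9% of all promoters held at least 1 of the 3 motifs. By complex, NRF1 cores stood in 2 of 3 promoters of complex II, 1 of 5 of complex III, 1 of 11 of complex IV and 6 of 15 of complex V, and the 3 YY1 cores were all in complex V (Atp5b, Atp5j and Atp5j2). Many gene promoters are rich in G and C, and these shares were not matched for base composition. Such a match is a description of the letters and not a measured binding site.

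Promoters of 4 members whose values are given in detail are printed here 5′ to 3′ on the gene's own strand, with each motif match in capitals. They are Sdha (chr13:74350191-74350490, minus strand, with 3 NRF1 cores), Cox6a1 (chr5:115348909-115349208, minus strand, with 2 NRF1 cores and 1 ETS core, the latter read on the opposite strand), Atp5b (chr10:128083057-128083356, plus strand, with a YY1 core read on the opposite strand) and Atp5e (chr2:174464052-174464351, minus strand, with an ETS core read on the opposite strand).
Sdha: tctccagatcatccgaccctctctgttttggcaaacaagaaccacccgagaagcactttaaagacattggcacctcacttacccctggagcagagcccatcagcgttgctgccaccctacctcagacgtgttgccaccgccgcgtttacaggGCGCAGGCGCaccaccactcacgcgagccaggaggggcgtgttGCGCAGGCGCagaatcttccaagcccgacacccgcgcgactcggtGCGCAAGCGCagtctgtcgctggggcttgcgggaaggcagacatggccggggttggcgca
Cox6a1: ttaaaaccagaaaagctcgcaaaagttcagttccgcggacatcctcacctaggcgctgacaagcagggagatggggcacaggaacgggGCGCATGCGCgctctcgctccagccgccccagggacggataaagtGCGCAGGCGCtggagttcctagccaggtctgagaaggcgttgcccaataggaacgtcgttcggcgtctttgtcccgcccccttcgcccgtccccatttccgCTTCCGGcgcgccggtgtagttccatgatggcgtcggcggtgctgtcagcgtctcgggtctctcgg
Atp5b: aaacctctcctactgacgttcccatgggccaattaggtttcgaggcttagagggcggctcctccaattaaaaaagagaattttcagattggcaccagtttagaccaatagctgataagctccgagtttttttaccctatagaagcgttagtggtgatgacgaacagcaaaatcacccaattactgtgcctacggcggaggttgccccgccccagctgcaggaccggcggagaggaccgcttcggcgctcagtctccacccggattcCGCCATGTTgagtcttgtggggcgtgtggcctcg
Atp5e: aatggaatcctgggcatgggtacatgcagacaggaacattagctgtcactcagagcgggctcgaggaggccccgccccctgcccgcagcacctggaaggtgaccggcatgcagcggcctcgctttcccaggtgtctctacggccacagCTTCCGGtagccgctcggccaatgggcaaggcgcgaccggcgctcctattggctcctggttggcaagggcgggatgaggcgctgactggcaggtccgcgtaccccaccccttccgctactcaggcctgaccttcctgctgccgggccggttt
Sdha and Cox6a1 carry the NRF1 core more than once, while Atp5b and Atp5e have none in this window. A link between these letters and the level or spread of a gene was not tested.

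All values are normalised read counts, that is, transcript abundance estimates summed to genes and divided by a size factor for each library. The read depth behind them is unknown, since the deposited values no longer sum to library sizes. The normalised totals of the 16 libraries lay between 92.8% and 104% of their mean. Arid1b, the targeted gene, averaged 2368 ± 432 (SD, n = 4) in WT-Veh mice, 2159 ± 233 in WT-Flx mice, 1795 ± 160.2 in HT-Veh mice and 1636 ± 61.0 in HT-Flx mice. Markers of cortical glutamatergic neurons were present in every library, 7 of 7. The mean log2 level of 6 striatal neuron markers ran from 7.81 to 10.6 over the libraries, with Drd2 from 18.8 in HT-Flx 3 to 607 in HT-Veh 4. A list of 10 olfactory bulb markers, which should be low in this cortex, had a mean log2 level of 5.67 to 6.37 in 11 libraries, but 10.2 in WT-Veh 1, 9.94 in WT-Flx 4, 8.72 in WT-Flx 2, 8.06 in WT-Flx 1 and 8.63 in HT-Veh 4. Of these 5 libraries, 4 are WT. Values without them are given beside some, not all, of the differences that they move by over 1.5 times. For HT-Veh against WT-Veh, differences are given without WT-Veh 1 and not without all libraries high in bulb markers.

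Per kilobase of transcript, the scale on which genes can be compared, the members spanned a wide range of levels. Cox8a, a small subunit of complex IV, was highest with a mean of 14937 normalised reads per kb (12068 to 18124 over 16 mice). It was followed by Atp5b, the catalytic beta subunit of ATP synthase, with 10262 (8871 to 13942), and by Cox6a1, a regulatory subunit of complex IV, with 9899 (7968 to 12819.6 normalised reads per kb). The ranges of these 3 neighbours overlapped. Atp5a1, the alpha subunit, averaged 5872 per kb and Atp5c1, the gamma subunit that turns inside the alpha and beta ring, 3514.

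In complex II, Sdha, the flavoprotein subunit that oxidises succinate, averaged 2881 normalised reads per kb, Sdhb, the iron-sulfur subunit, 1957, and the membrane anchors Sdhd and Sdhc 1235 and 697. Transcripts of Sdhc vary in annotated length from 815 to 3171 nt, which leaves its per-kb level uncertain. In complex III, the core subunits Uqcrc1 and Uqcrc2 averaged 2429 and 1993 per kb, and the Rieske iron-sulfur protein Uqcrfs1 1423. The hinge protein Uqcrh was the highest of complex III with 5299.

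The tissue isoforms of complex IV differed most. Cox6a1, the isoform of most tissues, averaged 9899 normalised reads per kb, while Cox6a2, the isoform of heart and skeletal muscle, averaged 116 (53.3 to 179). Cox6b1 averaged 6048 per kb and its testis isoform Cox6b2 61.6. Cox7a2 averaged 2941, the supercomplex factor Cox7a2l 2729.9, and the muscle isoform Cox7a1 37.9, the lowest of all members (8.30 to 60.8). In each of these families the range of the ubiquitous form over the 16 mice lay above that of the tissue form. Cox7b averaged 2469 per kb. Outside the rule, Cox4i1, the main form of subunit 4, averaged 10169.8 and its lung form Cox4i2 42.2.

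The c-ring of ATP synthase, the rotor that protons turn, is made from 3 genes that encode the same mature protein. Atp5g3 averaged 4191 normalised reads per kb, Atp5g1 833 and Atp5g2 296, and their ranges did not overlap. The order of Atp5g1 depends on which of its 4 annotated coding transcripts (596 to 4715 nt) was counted, and the genes share coding sequence, so reads between them may have been split by the authors' quantification.

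**Figure D1:**
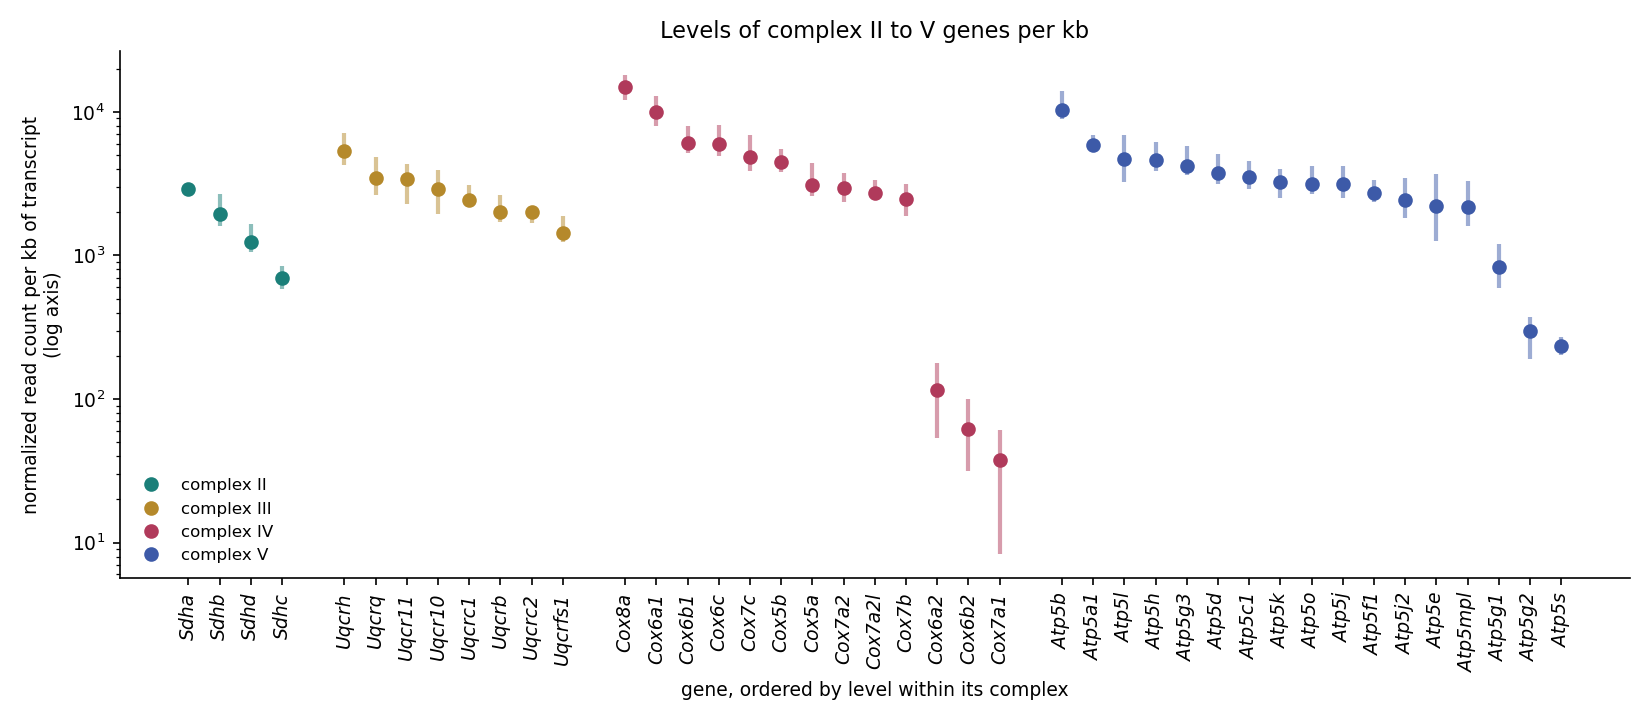
Level of each of the 42 members per kilobase of transcript on a log axis, ordered within each complex, with the mean as a point and the lowest to highest of 16 mice as a line. Cox8a is highest at 14937 normalised reads per kb and Cox7a1 lowest at 37.9.

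Among single mice, 2 WT libraries stood above all others for nearly the whole group. Averaged over the 42 members, the log2 deviation from the mean of the 16 mice was 0.39 in WT-Veh 1 and 0.28 in WT-Flx 1, and -0.25 in WT-Flx 2. The other 13 mice lay between -0.11 and 0.05. WT-Veh 1 had the highest value of the 16 mice for 26 members and was above their median for 41 of 42, WT-Flx 1 was highest for 11 and above the median for 39, and WT-Flx 2 was lowest for 21. The group means were 0.12 ± 0.18 (SD, n = 4) in WT-Veh mice and -0.02 ± 0.22 in WT-Flx mice. They were -0.03 ± 0.03 in HT-Veh mice and -0.06 ± 0.05 in HT-Flx mice. The larger SDs of the WT groups came with the outlying WT-Veh 1, WT-Flx 1 and WT-Flx 2.

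**Figure D2:**
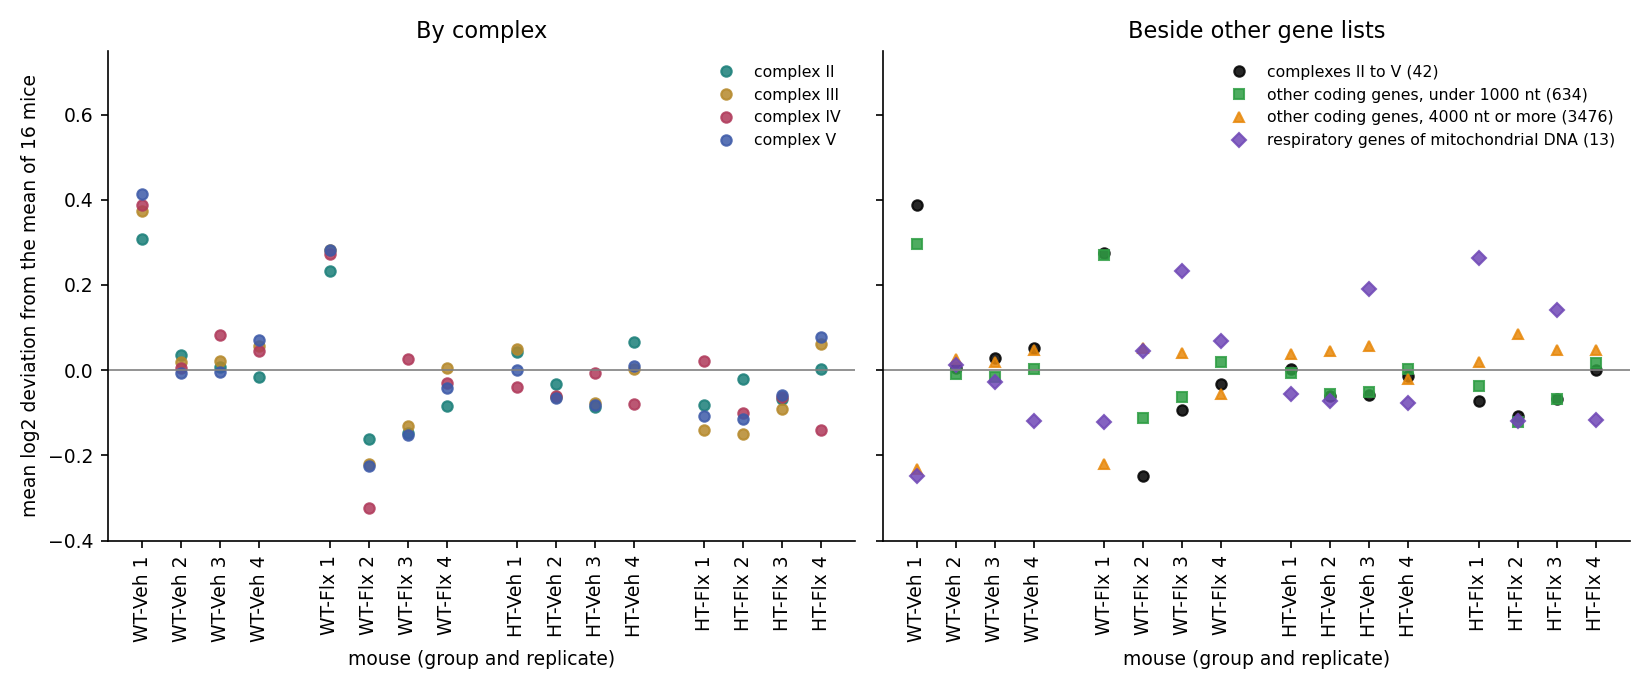
Mean log2 deviation from the mean of the 16 mice (vertical axis) in each mouse, for each complex at left and for all 42 members beside short, long and mitochondrially encoded genes at right. For the short and long genes the points are medians over genes. WT-Veh 1 and WT-Flx 1 lie above the rest in each complex, by 0.31 to 0.41 and 0.23 to 0.28.

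The 4 complexes shared this pattern. In WT-Veh 1 the mean deviation was 0.31 for complex II, 0.37 for complex III, 0.39 for complex IV and 0.41 for complex V, and in WT-Flx 1 it ran from 0.23 to 0.28. The pattern was not particular to them either. The 47 genes named as complex I subunits or factors stood at 0.38 and 0.31 in these 2 mice, 92 ribosomal protein genes at 0.38 and 0.25, and 634 other protein-coding genes with transcripts under 1000 nt at 0.30 and 0.27. The 3476 coding genes of 4000 nt or more stood at -0.23 and -0.22, and the 13 respiratory chain genes of mitochondrial DNA at -0.25 and -0.12. The values of the 634 and the 3476 genes are medians over genes, and those of the other lists are means. Of the members, 27 have transcripts under 1000 nt and stood at 0.44 and 0.29, and the 15 longer ones stood at 0.30 and 0.25. Transcript length thus moved with this deviation across genes. The bulb markers were high in both mice, and also in WT-Flx 2, WT-Flx 4 and HT-Veh 4, where the members stood at -0.25, -0.03 and -0.01. The part of either in the deviation was not tested.

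Single genes show the size of it. Atp5b, of complex V, was measured at 26712, 19991, 20471 and 20061 normalised reads in WT-Veh mice, 24510.1, 16998, 17352 and 19068 in WT-Flx mice, 19027, 17943, 17441 and 19146 in HT-Veh mice, and 17458, 19450.4, 18676 and 20279.7 in HT-Flx mice. The first WT-Veh and the first WT-Flx mouse were the 2 highest of the 16. Uqcrc1 gave 5110.3, 3813, 3993 and 3896 in WT-Veh mice, 4929, 3796, 3566 and 4004 in WT-Flx mice, 3945, 3745, 3669 and 4209.9 in HT-Veh mice, and 3750.2, 3924, 3805 and 4094 in HT-Flx mice. Here too the same 2 mice were highest, and the 14 others overlapped between all groups.

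Sdha was an exception in size. Its values were 8919.6, 8295, 8361 and 8225 in WT-Veh mice, 8823, 8145, 8390.2 and 8195 in WT-Flx mice, 8186, 7984, 8018 and 8507 in HT-Veh mice, and 8007, 8784, 8056 and 8770.1 in HT-Flx mice. The highest was 1.12 times the lowest, with a coefficient of variation of 3.78% over the 16 mice, the smallest of the 42 members. The iron-sulfur subunit Sdhb, in contrast, ran from 1825 to 3079, with the highest value in WT-Veh 1 and the second in WT-Flx 1 (2729.9). Uqcrc2 was the next steadiest, with a coefficient of variation of 6.98% and values from 3187 to 4135. The widest were the low tissue isoforms Cox7a1 (41.1%), Cox6a2 (33.4%) and Cox6b2 (27.8%), followed by Atp5e (27.7%).

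Other chains of complexes II and III were highest in the same mice. The anchor Sdhd was measured at 2027, 1459, 1426 and 1597 in WT-Veh mice, 1819.9, 1299, 1318 and 1301 in WT-Flx mice, 1563, 1476, 1383 and 1638 in HT-Veh mice and 1411, 1517, 1403 and 1691 in HT-Flx mice. WT-Veh 1 and WT-Flx 1 were highest, and the other 3 WT-Flx mice were the lowest of the 16. Uqcrfs1, which carries the Rieske cluster, gave 2579, 1819.8, 1853 and 2061 in WT-Veh mice, 2432, 1701, 1689 and 1872 in WT-Flx mice, 1915, 1852, 1723 and 2078 in HT-Veh mice and 1684, 1837, 1802 and 2133 in HT-Flx mice. The same 2 mice led again. Uqcrh, the hinge protein that helps cytochrome c dock, gave 3389, 2572, 2603 and 2537 in WT-Veh mice, 3152, 2147, 2485 and 2575 in WT-Flx mice, 2643, 2402, 2399 and 2443 in HT-Veh mice and 2292, 2021, 2105 and 2466 in HT-Flx mice. Its HT-Flx values included the lowest of the 16, in HT-Flx 2. Uqcr11, the smallest chain of complex III, ran from 1019 to 1929 over the 16 mice, with WT-Flx 2 lowest.

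In complex IV, Cox5a, a matrix-side subunit, was at 2825, 1984, 2066 and 1997 in WT-Veh mice, 2569, 1722, 1854 and 1973 in WT-Flx mice, 1918, 1825, 1790.1 and 2172 in HT-Veh mice and 1682, 1916, 1780.3 and 1929 in HT-Flx mice. WT-Veh 1 and WT-Flx 1 were the 2 highest. Cox6c ran from 3001 to 4886, Cox7a2 from 1549.9 to 2481, Cox7c from 2081 to 3708 and Cox8a from 6637 to 9968, all small membrane-spanning chains. WT-Flx 1 had the highest Cox6c and Cox8a and WT-Veh 1 the highest Cox7a2 and Cox7c, while the lowest value was that of WT-Flx 2 in Cox7a2, Cox7c and Cox8a and of HT-Flx 4 in Cox6c. The muscle isoform Cox7a1, near the filter of 10 normalised reads, gave 26.7, 8.93, 21.1 and 14.6 in WT-Veh mice, 14.7, 3.65, 24.2 and 10.3 in WT-Flx mice, 9.49, 23.6, 12.6 and 20.2 in HT-Veh mice and 20.3, 22.6, 22.4 and 10.7 in HT-Flx mice. Its 4 groups overlapped throughout.

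In the F1 head of ATP synthase, the alpha subunit Atp5a1 was at 17843, 14490.3, 14340.4 and 15543 in WT-Veh mice, 17672, 14845, 14245 and 15065 in WT-Flx mice, 14648, 14303, 13901 and 15395 in HT-Veh mice and 14174, 15929, 13567 and 15717 in HT-Flx mice. The gamma subunit Atp5c1 gave 5227, 3891, 3925 and 3833 in WT-Veh mice, 5259, 4026, 4095 and 4559 in WT-Flx mice, 3726, 3727, 3827 and 4100.0 in HT-Veh mice and 3909, 4000.2, 3390.2 and 4069 in HT-Flx mice. In both genes WT-Veh 1 and WT-Flx 1 were the 2 highest mice. The others overlapped between groups in Atp5a1, while in Atp5c1 the other 3 WT-Flx mice lay above the other 3 WT-Veh mice. The delta subunit Atp5d ran from 2918 to 4759, with the same 2 mice on top. Among stator subunits, Atp5f1 (subunit b) ran from 3749 to 5387 and Atp5j (coupling factor 6) from 1878 to 3103, and among the small membrane subunits Atp5j2 ran from 1364 to 2589 and Atp5k from 810.0 to 1289. WT-Flx 2 was lowest in Atp5d, Atp5j, Atp5j2 and Atp5k, and HT-Flx 3 in Atp5f1.

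Of the c-ring genes, Atp5g1 was at 3190.2, 2204, 2519 and 2275 in WT-Veh mice, 2845, 1590.0, 1822 and 2005 in WT-Flx mice, 2142, 2115, 1962 and 2290.4 in HT-Veh mice and 2009.9, 2200.1, 2302 and 2201 in HT-Flx mice. Atp5g3 gave 4143, 2792, 3113 and 2999 in WT-Veh mice, 3667, 2736, 2682 and 3103 in WT-Flx mice, 3029, 2778, 2898 and 3167 in HT-Veh mice and 2591, 2815, 2625 and 3038 in HT-Flx mice. Both were highest in WT-Veh 1 and WT-Flx 1. Atp5g2, the least expressed, gave 193, 142, 118 and 178 in WT-Veh mice, 186, 205, 151 and 136 in WT-Flx mice, 112, 184, 199 and 191 in HT-Veh mice and 201, 184, 219.9 and 177 in HT-Flx mice. Its highest value lay in HT-Flx and its lowest in HT-Veh, and WT-Veh 1 and WT-Flx 1 were not apart from the rest.

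**Figure D3:**
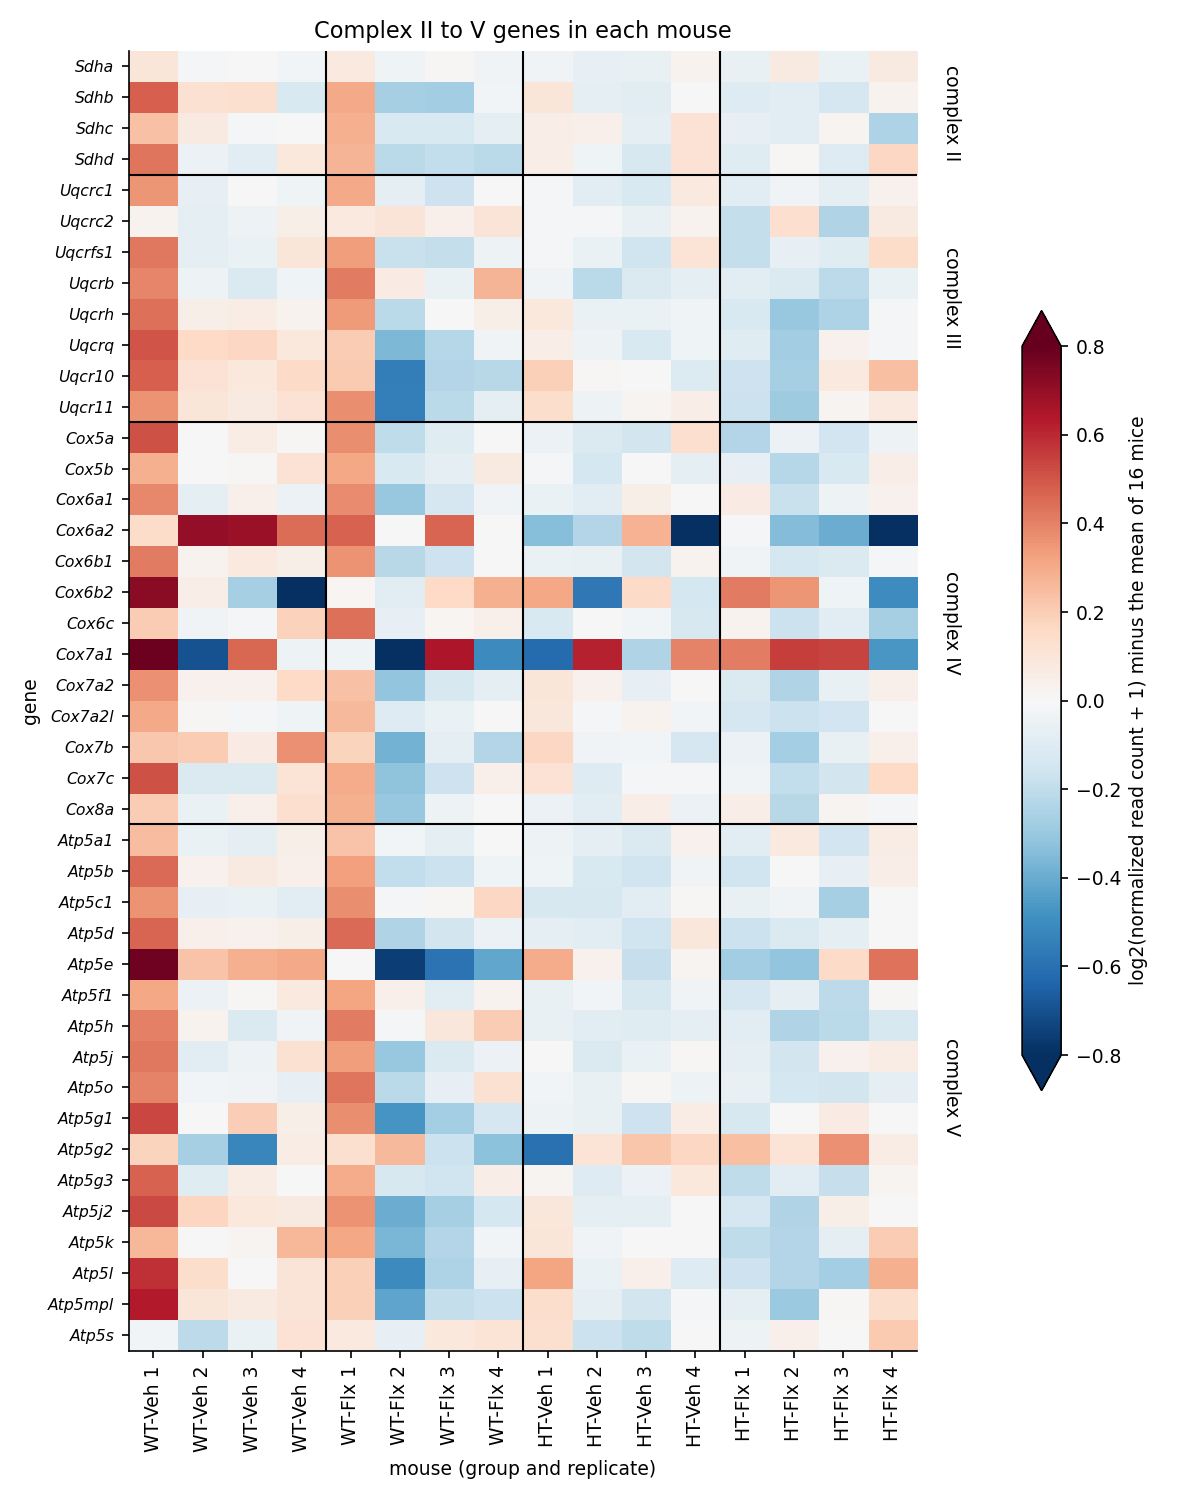
Log2 deviation of each of the 42 members (rows, by complex) from its own mean over the 16 mice (columns, by group) as a colour scale. The columns of WT-Veh 1 and WT-Flx 1 are high for most rows (41 and 39 above the 16-mouse median), and that of WT-Flx 2 is low.

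HT-Veh against WT-Veh compared the genotypes without drug. No member passed the test (limma, moderated test on log2 of value + 1 over 16832 genes, 4 mice a group, Benjamini-Hochberg adjusted p threshold 0.05), as for nearly all genes, of which 0.0178% passed. The smallest adjusted p among members was 0.914. The members nonetheless lay to one side: 40 of 42 had a log2 difference below 0, with a median of -0.14 (a change of -9.14%), where 48.2% of all genes tested lay below 0 with a median of 0.01. At an unadjusted p under 0.05, 6 members were lower and 0 higher, beside 2.26% and 2.63% of all genes. The medians were -0.07 for complex II, -0.14 for complex III, -0.13 for complex IV and -0.15 for complex V. The size rested on 1 mouse: without WT-Veh 1 the median was -0.05, with 32 of 42 below 0. The lean was not particular to the members. From WT-Veh to HT-Veh mice, their mean log2 deviation fell from 0.12 to -0.03. That of ribosomal protein genes fell from 0.08 to -0.01. The median deviation of the 634 other coding genes under 1000 nt, averaged over mice, fell from 0.07 to -0.03. The same median of coding genes of 4000 nt or more rose from -0.04 to 0.03. The part of transcript length in the members' lean was not tested.

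In 4 members the HT-Veh and WT-Veh values did not overlap, all with HT-Veh lower, as for 1.78% of all genes. Uqcrq, a small ubiquinone-binding subunit of complex III, was at 2437, 1923, 1929 and 1819 in WT-Veh and at 1780.1, 1671, 1582 and 1678 in HT-Veh. The log2 difference was -0.26 (SE 0.09, limma adjusted p = 0.922), and -0.17 without WT-Veh 1. Atp5b, with the values above, had a log2 difference of -0.24 (SE 0.10, limma adjusted p = 0.922), and without WT-Veh 1 of -0.13 with an adjusted p of 0.582 (from 0.219 to 0.999 over 21 settings of the processing).

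Cox5b, a subunit of complex IV that binds zinc, was at 4040.2, 3328, 3331 and 3598 in WT-Veh and at 3276, 3012, 3315 and 3142 in HT-Veh. Cox6b1, which sits at the dimer interface of complex IV on the side of the intermembrane space, was at 3898, 2974, 3082 and 3009.6 in WT-Veh and at 2808, 2795, 2638 and 2971 in HT-Veh. The gap between the groups was narrow in both genes, 3315 against 3328 for Cox5b and 2971 against 2974 for Cox6b1. The log2 differences were -0.16 and -0.20, and -0.10 and -0.11 without WT-Veh 1. For each of the 4 members the exact permutation test (two-sided) gave p = 0.0286, the smallest that 4 against 4 mice allow. Groups of 4 without overlap always give this p, so it adds nothing to the lack of overlap.

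The smallest p among members belonged to Cox6a2, with a log2 difference of -0.83 (SE 0.26, limma adjusted p = 0.914), followed by Uqcrq and by Atp5e with -0.36 (SE 0.14, limma adjusted p = 0.922). Without WT-Veh 1, Cox6a2 was at -0.94 and Atp5e at -0.23. Both members above 0 were Atp5g2, one of the c-ring genes, at 0.11 (SE 0.22), and Cox6b2 at 0.03 (SE 0.36), each with an SE larger than the difference. Without WT-Veh 1 they were at 0.22 and 0.30. Sdha was at -0.05 and Cox6a1 at -0.10, and without WT-Veh 1 they were at -0.02 and 0.00.

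**Figure D4:**
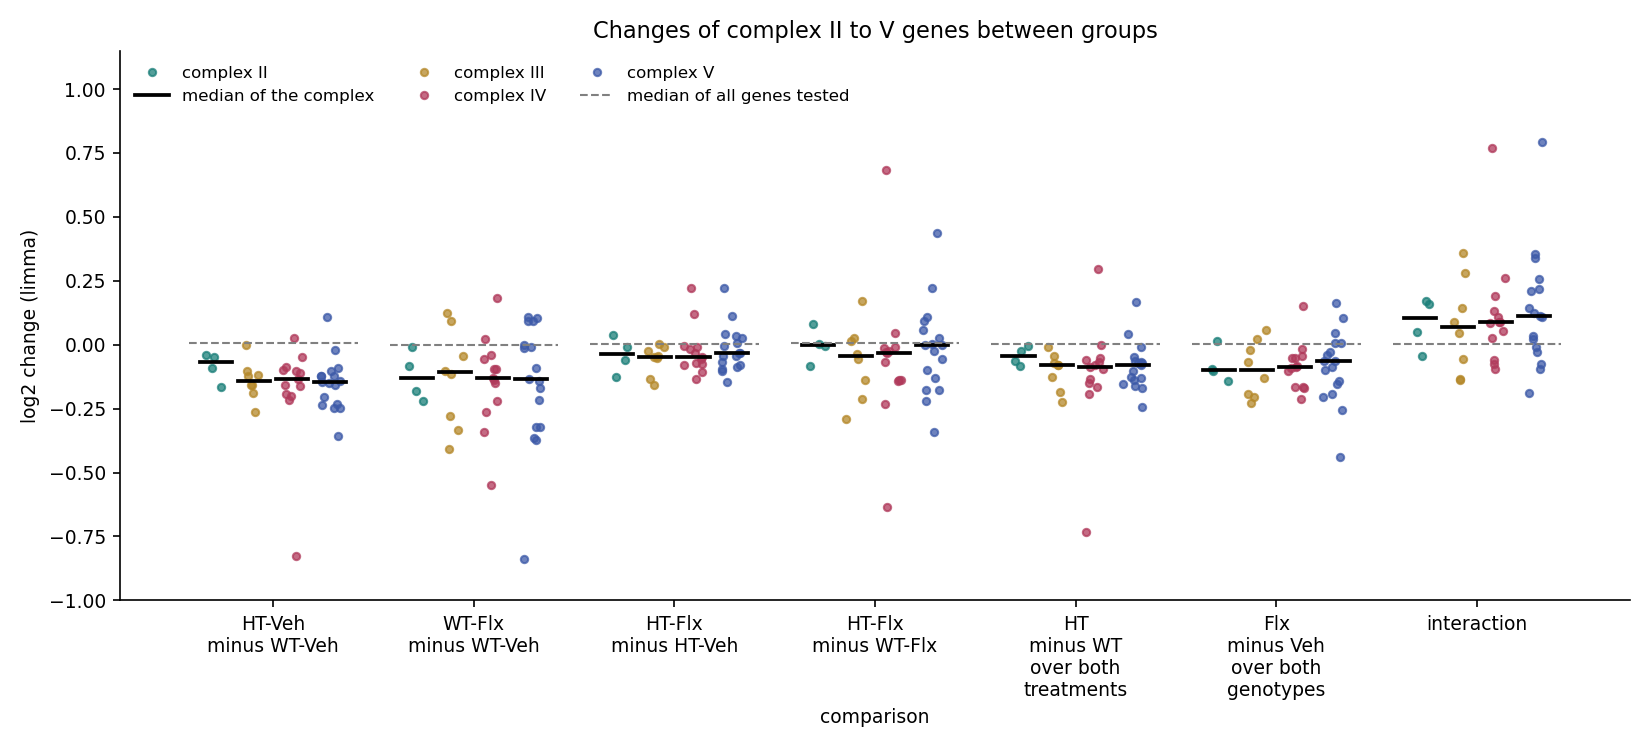
Log2 difference of each member (points, coloured by complex) in each of the 7 comparisons, with the median of each complex as a solid line and that of all genes tested as a dashed line. Most points of HT-Veh against WT-Veh and of WT-Flx against WT-Veh lie below 0 (40 and 34 of 42), and no member passed the test in any comparison.

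The other parts of the system stood as follows in HT-Veh against WT-Veh, with no gene of any of these lists past the test. Of 47 complex I genes, 46 were below 0 (median -0.16), 3 with an unadjusted p under 0.05. The accessory subunit Ndufa1 was at -0.34 (limma adjusted p = 0.899). The 13 respiratory chain genes of mitochondrial DNA lay the other way, with a median of 0.10 and 2 below 0. Among assembly factors, 3 of 4 for complex II were below 0 (median -0.05), 4 of 6 for complex III (-0.14), 11 of 21 for complex IV (-0.06) and 3 of 5 for complex V with its inhibitor (-0.20). Cox14, a complex IV assembly factor, was at -0.35 (limma adjusted p = 0.783), and the ATP synthase inhibitor Atpif1 at -0.23. All 11 genes of a list of Cox4 isoforms, cytochrome c and carriers were below 0, with a median of -0.09. Cyc1, the cytochrome c1 subunit of complex III that the symbol rule missed, was at -0.26. The 13 citric acid cycle genes had a median of -0.03, and 13 genes of mitochondrial biogenesis, such as Esrra at -0.22 and Yy1 at 0.08, a median of -0.02.

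Early fluoxetine in HT mice was read from HT-Flx against HT-Veh, which shares the HT-Veh mice with the comparison above. No member passed the test, nor did any of the 16814 genes (0% called, limma), and 0 members had an unadjusted p under 0.05, beside 1.64% of all genes lower and 1.43% higher. The median of the members was -0.04 with 32 of 42 below 0, where 48.8% of all genes lay below 0. By complex the medians ran from -0.05 to -0.03. The smallest p values were those of Uqcrh at -0.16 (SE 0.08), Cox7a2l at -0.13 (SE 0.06) and Sdhc, a membrane anchor of complex II, at -0.13 (SE 0.08), each with an adjusted p of 0.99996 in limma. Against the direction of the median, Atp5g2 was at 0.22 (SE 0.18) and Atp5s at 0.11.

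In 1 member, Atp5o, the subunit that ties the stator of ATP synthase to its head, the groups did not overlap (1.05% of all genes were lower without overlap). It was outside the naming rule and is named after its values were seen. HT-Veh was at 2579, 2512, 2633 and 2547 and HT-Flx at 2510.5, 2374, 2363 and 2483, so the gap was about 1 normalised read. The log2 difference was -0.08, with p = 0.0286 in the exact permutation test, which the lack of overlap fixes.

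Early fluoxetine in WT mice was read from WT-Flx against WT-Veh, again with the WT-Veh mice in common with the first comparison. No member and none of the 16833 genes passed (0% called, limma), while 5 members had an unadjusted p under 0.05, all lower, beside 2% of all genes lower and 2.2% higher. The median was -0.12 with 34 of 42 below 0, against 50.2% of all genes. It was -0.13 for complex II, -0.11 for complex III, -0.13 for complex IV and -0.14 for complex V. The 2 highest mice fall in opposite arms here: without WT-Veh 1 the median was -0.02, without WT-Flx 1 it was -0.24, and without both it was -0.13. Parvalbumin interneuron markers had a median of -0.31, with 4 of 5 below 0 and 3 lower at an unadjusted p under 0.05. The 10 olfactory bulb markers all lay above 0, with a median of 1.08 and 0 at an unadjusted p under 0.05. Without the libraries high in bulb markers, which leaves WT-Flx 3 as the only WT-Flx mouse, the members' median was -0.13. The part of the parvalbumin markers in the members' values was not tested.

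Atp5e, the epsilon subunit of the central stalk of ATP synthase and one of its smallest chains, stood apart in this comparison. The gene lies on chromosome 2 from 174461072 to 174464105 (GRCm38, minus strand). Its values were 1548, 1055, 1096 and 1113 in WT-Veh mice, 902, 534, 599 and 675 in WT-Flx mice, 1107, 924, 793 and 915 in HT-Veh mice, and 743, 723, 1003 and 1218 in HT-Flx mice. All 4 WT-Flx mice lay below all 4 WT-Veh mice (as for 1.09% of all genes), 3 of them were the lowest of the 16, and HT-Veh and HT-Flx overlapped.

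The WT-Flx mean of Atp5e was 678 ± 160.4 (SD, n = 4) against 1203 ± 231 in WT-Veh, a log2 difference of -0.84 (SE 0.18, limma p = 0.000705, adjusted p = 0.9997), and the exact permutation test gave p = 0.0286. Over 21 settings of the processing the difference ran from -0.98 to -0.71, and the adjusted p from 0.0302 to 1.000. It passed the threshold in 3 of them: with sample quality weights (adjusted p = 0.0319), without the libraries high in bulb markers, which left WT-Flx with 1 mouse assumed to vary like the others (0.0339), and without WT-Veh 1 and WT-Flx 1 (0.0302). WT-Flx 1, above the median of the 16 mice for 39 members, lay below all 4 WT-Veh mice for Atp5e.

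Cox7b, a small subunit of complex IV, was at 2848, 2824, 2568 and 3159 in WT-Veh and at 2767, 1884, 2331 and 2080.5 in WT-Flx, a log2 difference of -0.34 (SE 0.12). Only the first WT-Flx mouse overlapped the WT-Veh range. Uqcr10, a small subunit of complex III, was at 1719, 1334, 1305 and 1370.0 in WT-Veh and at 1428, 839, 1049 and 1054 in WT-Flx, a log2 difference of -0.41 (SE 0.16). Again WT-Flx 1 alone reached the WT-Veh range. Uqcrq at -0.33 and Atp5mpl at -0.37 also had an unadjusted p under 0.05. Against the median stood Uqcrc2 at 0.09 and Uqcrb, which helps bind ubiquinone, at 0.12. The adjusted p was 0.9997 for each of these in limma. Without the libraries high in bulb markers Uqcrb was at 0.0073, with WT-Flx 3 the only WT-Flx mouse.

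Around the members, 33 of 47 complex I genes were below 0 (median -0.09), with 3 lower and 2 higher at an unadjusted p under 0.05. Ndufa4, now known as a subunit of complex IV, was at -0.47. Of the 13 mitochondrial DNA genes 12 were above 0 (median 0.20). The assembly factors Sdhaf4 and Uqcc2 were at -0.59 and -0.53, and the citric acid cycle genes had a median of 0.01. None passed the test.

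HT-Flx against WT-Flx compared the genotypes under drug. No member passed, beside 0.0417% of the 16788 genes (limma), and the smallest adjusted p among members was 0.335. The median was -0.03, with 27 of 42 below 0 against 48.4% of all genes, and 3 members were lower and 1 higher at an unadjusted p under 0.05, beside 4.87% and 5.58% of all genes. By complex the medians ran from -0.05 to -0.00. Without WT-Flx 1 the median was 0.06 and only 14 members were below 0, and without WT-Flx 2 it was -0.10 with 36 below 0, so its sign depended on which WT-Flx mice entered. The 10 olfactory bulb markers were all below 0, with a median of -2.12, 10 at an unadjusted p under 0.05 and 5 without overlap. Without the libraries high in them, which leaves WT-Flx 3 as the only WT-Flx mouse, the members' median was 0.05.

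Without overlap, 2 members were lower in HT-Flx (3.13% of all genes were). Atp5h, subunit d of the stator of ATP synthase, was at 3927, 2922, 3129.5 and 3384 in WT-Flx and at 2766, 2495, 2537 and 2697 in HT-Flx. The log2 difference was -0.34 (SE 0.10, limma adjusted p = 0.335, and exact permutation p = 0.0286, fixed by the lack of overlap). In the vehicle groups Atp5h was at 3894, 2995, 2713 and 2889 in WT-Veh and at 2828, 2779, 2749 and 2789 in HT-Veh, which overlapped. The second was Cox6a2.

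Uqcrb was at 1419.6, 1116, 1024 and 1283 in WT-Flx and at 999.6, 982, 919.5 and 1026 in HT-Flx, with a log2 difference of -0.29 (SE 0.11, limma adjusted p = 0.419) and an overlap of about 2 normalised reads. Without the libraries high in bulb markers it was -0.062, with WT-Flx 3 the only WT-Flx mouse. On the other side, Atp5e was at 0.44 (SE 0.19, limma adjusted p = 0.463), with the low WT-Flx values given above, and Cox7a1 at 0.68 (SE 0.51). Without the libraries high in bulb markers Cox7a1 was at -0.39. In complex I, 33 of 47 genes were below 0 (median -0.08), and Ndufa12 was at -0.46 (limma adjusted p = 0.289).

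Whether the effect of the drug differed between genotypes was tested by the interaction, (HT-Flx minus HT-Veh) minus (WT-Flx minus WT-Veh), over all 16 mice. No member and none of 17567 genes passed (0% called, limma), and 1 member, Atp5e, had an unadjusted p under 0.05, with a value above 0, beside 2% of all genes above 0 and 2.29% below 0. Its interaction was 0.79 (SE 0.26, limma adjusted p = 0.998). The median of the members was 0.09 with 12 below 0, against 49.7% of all genes. Leaving out WT-Veh 1 brought the median to 0.01, and leaving out WT-Flx 1 to 0.20. Atp5g1 and Uqcr10, both at 0.36, came next by p, and Atp5h at -0.19 (-0.30 without WT-Veh 1, -0.11 without WT-Flx 1) and Uqcrc2 at -0.14 lay against the median.

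Averaged over genotypes with genotype as a covariate, Flx against Veh gave a median of -0.09 with 33 members below 0 (49.1% of all genes were). No member and none of the 17567 genes passed (0% called, limma). At an unadjusted p under 0.05, 6 members were lower and 0 higher, beside 1.74% and 1.37% of all genes. Atp5e was at -0.44 (SE 0.16), Cox7b at -0.21 (SE 0.08) and Atp5l, a membrane subunit at the dimer interface of ATP synthase, at -0.26 (SE 0.11), each with an adjusted p of 0.9997 in limma. Atp5s at 0.10 and Atp5g2 at 0.16 lay against the median.

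Averaged over treatments with treatment as a covariate, HT against WT gave a median of -0.08 with 39 of 42 members below 0, against 48.9% of all genes. No member passed, beside 0.0398% of 17567 genes (limma). At an unadjusted p under 0.05, 8 members were lower and 0 higher, beside 5.44% and 6.42% of all genes. Beside Cox6a2, Atp5h and Uqcrb, these were Cox6c at -0.19, Uqcrh at -0.18, Atp5c1 at -0.17, Atp5f1 at -0.16 and Cox5b at -0.15 (limma adjusted p from 0.349 to 0.402). In Cox6c, Uqcrh, Atp5c1, Atp5f1 and Cox5b, WT-Veh 1 and WT-Flx 1 lay above all other mice. Without WT-Veh 1 and WT-Flx 1 the median of all members was 0.00, with 20 members below 0. The median log2 deviation of the 634 other coding genes under 1000 nt, averaged over the mice of a group, was lower in HT mice too. It fell from 0.07 to -0.03 with vehicle and from 0.03 to -0.05 with fluoxetine.

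Cox6a2, the muscle isoform of complex IV subunit 6A, had the largest difference in this comparison. The gene lies on chromosome 7 from 128205435 to 128206387 (GRCm38, minus strand), and overlaps Itgad on the opposite strand. Whether its reads and those of Itgad were kept apart was not tested. Its values were 82.6, 122, 121 and 102 in WT-Veh mice, 104, 74.2, 103 and 74.8 in WT-Flx mice, 58.5, 63.2, 90.6 and 36.3 in HT-Veh mice, and 73.6, 58.4, 56.4 and 40.8 in HT-Flx mice. Of the 8 HT mice, 7 lay below all 8 WT mice, and HT-Veh 3 lay among them. HT-Flx and WT-Flx did not overlap, though by less than 1 normalised read.

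The group means of Cox6a2 were 107 ± 18.5 (SD, n = 4) in WT-Veh mice, 88.9 ± 16.7 in WT-Flx mice, 62.1 ± 22.3 in HT-Veh mice and 57.3 ± 13.4 in HT-Flx mice. HT against WT had a log2 difference of -0.73 (SE 0.17, limma adjusted p = 0.191), a change of -39.7%. With the bulb marker score as a covariate the difference was -0.95 and passed the test (adjusted p = 0.0392), and over 26 settings it ran from -0.95 to -0.62 with adjusted p from 0.0392 to 0.373. Without the 5 libraries high in bulb markers it was -0.77 (adjusted p = 0.291). Under drug alone, in HT-Flx against WT-Flx, it was -0.64 (SE 0.23, limma adjusted p = 0.387).

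Since Cox6a2 is known in the brain from parvalbumin interneurons, the levels of their markers are given beside it. Pvalb was at 819, 1126, 1132 and 1117 in WT-Veh mice, 826, 545, 838 and 558 in WT-Flx mice, 758, 775, 899.5 and 571 in HT-Veh mice, and 786, 622, 799 and 640.0 in HT-Flx mice. The mean log2 level of the 5 listed markers (Pvalb, Tac1, Kcnc1, Syt2 and Erbb4, none at 0 in any mouse) ran from 10.10 to 10.79 in WT-Veh mice, 10.01 to 10.36 in WT-Flx mice, 10.30 to 10.41 in HT-Veh mice and 10.19 to 10.43 in HT-Flx mice. HT against WT gave a median of -0.09 over the 5, with 3 below 0 and 0 at an unadjusted p under 0.05. In HT-Veh against WT-Veh the median was -0.06 with 4 below 0, 2 at an unadjusted p under 0.05. Of these markers, Tac1 was highest in HT-Veh 4 (774), where the striatal markers Drd1 (711) and Drd2 (607) were highest too. Of 5 skeletal muscle markers 3 were measured, and Acta1 ran from 110.8 to 246. The part of these cells in the Cox6a2 values was not tested.

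**Figure D5:**
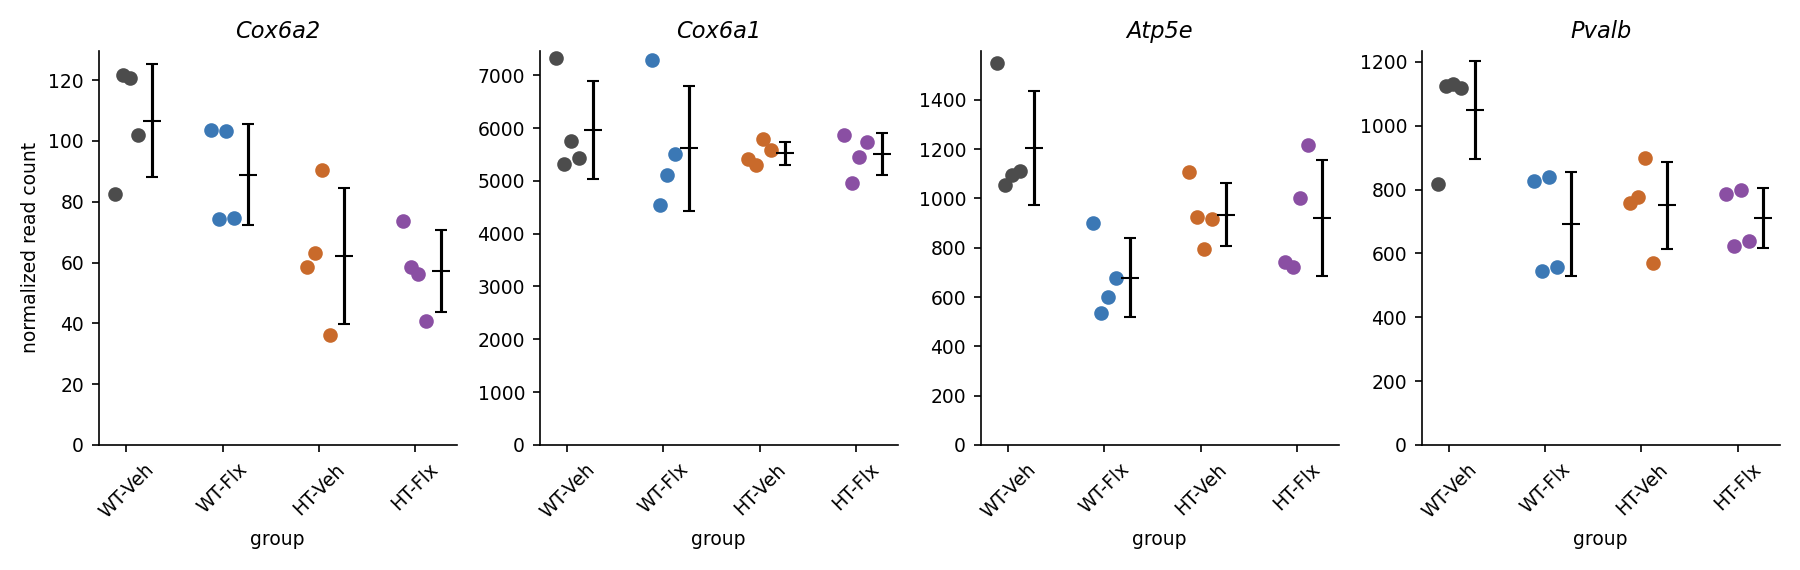
Normalised read counts of Cox6a2, Cox6a1, Atp5e and Pvalb in each of the 16 mice (points) with the mean and SD of each group (n = 4, line with bars). In Cox6a2, 7 of 8 HT mice lie below all WT mice, and in Atp5e the 4 WT-Flx mice lie below the 4 WT-Veh mice.

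After Cox6a2, the smallest p values in HT against WT belonged to Atp5h at -0.25 (SE 0.07, limma adjusted p = 0.288) and Uqcrb at -0.22 (SE 0.08, limma adjusted p = 0.347). Without the 5 libraries high in bulb markers they were at -0.11 and -0.058, and without WT-Veh 1 and WT-Flx 1 at -0.15 and -0.13. For Atp5h the 4 HT-Veh mice lay within a narrow band of 2749 to 2828. Against the median lay Atp5g2 at 0.17 and Cox7a1 at 0.30, the latter at -0.13 without the 5 libraries high in bulb markers. Cox6a1, the common isoform paired with Cox6a2, was at -0.05 (SE 0.09, limma adjusted p = 0.812), and changed sign in 5 settings. Its values were 7320.0, 5327, 5762 and 5426 in WT-Veh mice, 7298, 4549.6, 5116 and 5510.0 in WT-Flx mice, 5409, 5298, 5797 and 5589 in HT-Veh mice, and 5875, 4968, 5454 and 5739.6 in HT-Flx mice. Apart from the first mouse of each WT group, the 4 groups overlapped.

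Of the remaining system in HT against WT, 44 of 47 complex I genes were below 0 (median -0.12) and 11 were lower at an unadjusted p under 0.05, among them Ndufa5 at -0.33 (limma adjusted p = 0.243) and the core subunit Ndufs1 at -0.23. All 11 genes of the Cox4, cytochrome c and carrier list were below 0 (median -0.10). The citric acid cycle genes had a median of -0.10, with Idh3g, a subunit of isocitrate dehydrogenase, at -0.19 (limma adjusted p = 0.269). The mitochondrial DNA genes had a median of 0.05 with 5 of 13 below 0. The bulb markers moved with genotype too: 10 of 10 were below 0 in HT against WT, with a median of -1.29, and 6 had an unadjusted p under 0.05. Their part in the difference of the members was not tested beyond the values without those libraries, which gave a median of -0.02 for the 42 members.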

How the data were processed

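Poly-A RNA from the mPFC of 16 mice was sequenced from stranded libraries. The authors quantified reads with Salmon 1.1.0, imported them with tximport and normalised them with DESeq2 1.30.1. The deposited table holds this normalised signal (estimated counts divided by size factors) for 18424 genes. How genes were chosen for it is not given in the sources used here. Whole reads could not be recovered from the values, so no count test was run and the precision that depth gives is unknown.

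Groups came from the sample labels. Symbols, positions and transcript lengths came from GENCODE M21 (GRCm38), and promoters from RefSeq. Values were tested as log2(value + 1) with limma 3.58.1 (trended variances) in R 4.3.3, for genes of at least 10 in at least 4 samples of the comparison, with Benjamini-Hochberg adjustment over all genes and a threshold of 0.05. A fold change on this scale understates that of low genes such as Cox7a1 and Cox6b2. All 42 members passed the filter in every comparison. The 4 comparisons between 2 groups used their 8 samples, and the other 3 used 16. The steps were tested on simulated data.

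Members, pathway and marker lists were chosen with earlier results of these data known. Members were named by role, or as the 3 with the smallest p in a comparison, or the 2 with the smallest p against the median. From the other lists, up to 2 genes with the smallest p were named. Alternatives covered the pseudocount (0.1 and 8), the filter, 2 other scalings, sample weights, a replicate block, the bulb markers as a covariate, all 4 groups in the fit, and each mouse left out.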

Additional observations from a re-analysis of the deposited data

Results flagged for a closer look

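In 20 of 188 groups of 4 mice (each member and each mean over a complex, in each group), 1 mouse stood apart, its gap to the next being over 0.829 of the group's range. Chance alone does this in about 1 in 20 groups, and the members share mice, so these are not independent. Of the 20, 17 were highest in WT-Veh 1. There the mean log2 deviation was 0.39 over all members, 0.31 over complex II and 0.37 over complex III. The normalised reads of that mouse were 5110.3 for Uqcrc1, 1395 for Uqcrb, 3389 for Uqcrh, 1719 for Uqcr10 and 1908 for Uqcr11. In complex IV they were 2825 for Cox5a, 3898 for Cox6b1 and 3701 for Cox7a2l. In complex V they were 26712 for Atp5b, 5227 for Atp5c1, 4759 for Atp5d, 1548 for Atp5e, 3458 for Atp5o and 1622 for Atp5mpl. WT-Flx 1 stood apart for the complex II membrane anchors Sdhc (1685) and Sdhd (1819.9), and HT-Flx 4 for Atp5l (3058).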

How the results depend on the processing

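The values are those of 4 mice a group, the read depth behind them is unknown, and no member passed the test in any of the 7 comparisons as first set. Under the alternatives listed with the methods and those chosen after seeing the data (leaving out the 5 libraries high in bulb markers, or the 2 WT libraries in which other coding genes with transcripts under 1000 nt stood highest), the number of members called went from 0 to 1 in 4 settings. These were Atp5e in WT-Flx against WT-Veh with sample quality weights and without either set of libraries, and Cox6a2 in HT against WT with the bulb marker score as covariate. Leaving out each mouse in turn kept the number called at 0 in each comparison, and the median log2 difference of the members ranged from -0.18 to -0.05 in HT-Veh against WT-Veh, -0.08 to -0.01 in HT-Flx against HT-Veh, -0.24 to -0.02 in WT-Flx against WT-Veh, -0.10 to 0.06 in HT-Flx against WT-Flx, 0.01 to 0.20 in the interaction, -0.12 to -0.04 in HT against WT and -0.14 to -0.03 in Flx against Veh.

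Single members changed sign as follows, and the cause was not tested. Cox6a1 in HT-Veh against WT-Veh came to 0.0047 without WT-Veh 1 and without the 2 WT libraries. In HT against WT it came to 0.029 with quality weights, 0.0011 with the bulb covariate, 0.035 without the 5 libraries, 0.065 without the 2 and 0.0046 without WT-Flx 1. Cox7a1 came to -0.31 with the bulb covariate and -0.39 without the 5 libraries in HT-Flx against WT-Flx, and to -0.13 without them in HT against WT. With single mice left out, in HT-Veh against WT-Veh Cox6b2 ran from -0.23 to 0.30, Atp5g2 from -0.019 to 0.30 and Cox6a1 from -0.15 to 0.0047, and in HT-Flx against HT-Veh Atp5e ran from -0.19 to 0.061.

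Replicate numbers showed no steady pairing. The deviations of same-numbered mice correlated at 0.31, 0.11, 0.19 and -0.20 in WT-Flx against WT-Veh and at a mean of 0.01 to 0.03 in the other comparisons. Single values varied more than these means, at -0.05, 0.22, 0.10 and -0.23 in HT-Veh against WT-Veh. Whether a replicate number marks a shared batch is not given in the labels. With a replicate block the median in HT-Veh against WT-Veh stayed at -0.14 and the number called at 0 in each comparison, while in WT-Flx against WT-Veh 12 members in place of 5 were lower at an unadjusted p under 0.05. The 2% of all genes lower in that comparison belongs to the fit without the block, so the rise was not set against all genes.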

Other observations

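The members took up 0.642% of all normalised reads in WT-Veh 1 and 0.584% in WT-Flx 1, and 0.412% to 0.484% in the other 14 mice. Among the subunits that the symbol rule missed, Cox4i1, the common form of complex IV subunit 4, was highest in WT-Veh 1 (9914) and WT-Flx 1 (9373) and lowest in WT-Flx 2 (5924). Usmg5, a membrane subunit of ATP synthase, averaged 2693 ± 409.5 (SD, n = 4) in WT-Veh mice, 1957 ± 297 in WT-Flx mice, 2403 ± 483 in HT-Veh mice and 2134 ± 448 in HT-Flx mice. It was highest in WT-Veh 1 (3033), while WT-Flx 1 (2348) lay below HT-Veh 1 (2955). Cytochrome c itself (Cycs) averaged 2111 ± 227, 2098 ± 97.3, 2025 ± 106 and 1862 ± 164 in the same order, with spreads that overlap.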
